A study of Trichoderma reesei with 11 samples.

Results

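RNA levels were compared between constant light and constant darkness in a Trichoderma reesei strain that lacks TR_57513, a MAPKKK of the HOG pathway according to the series title. The members were the 6 libraries whose titles give this deletion strain, out of 11 in the series, with all gene IDs of the count table. The groups were the deletion strain in light (QM6a-delta-mus53-delta-57513, 3 libraries) and in darkness (3 libraries), and, for comparison, its parent QM6a-delta-mus53 in light (3 libraries) and in darkness (2 libraries). All 4 groups carried the mus53 deletion, all were mycelium on minimal medium with cellulose at 28 °C, and all were taken after 96 h. Whether the deletion strain stands for 1 transformant or several, and whether libraries came from separate cultures, is not given in the sources used here, and p-values therefore measure only how these libraries vary, which may be technical. The deletion was not checked by the transcript of its gene, since the count table gives systematic IDs without names.

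The HOG pathway is a relay of kinases in which a MAPKKK activates a MAPKK, which in turn activates the MAP kinase known as Hog1 in yeast and TMK3 in Trichoderma reesei. In yeast the pathway is known for the response to high osmolarity, and in filamentous fungi also for responses to other stresses. Light is sensed in Trichoderma reesei by the blue light regulators BLR1 and BLR2 and by ENV1, and it is known there to alter the expression of cellulase genes and the formation of conidia. In Aspergillus nidulans a HOG-type kinase cascade is known to carry a light signal.

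Libraries of the deletion strain held 8924252 to 10184280 counts in light and 13790024 to 18278047 in darkness. The light libraries resembled each other closely, with Pearson r of 0.992 to 0.995 between log2(CPM + 1) values taken over gene IDs, which are no independent replicates. In darkness replicates 2 and 3 correlated at 0.992, and replicate 1 stood apart, at 0.958 and 0.947 with the others. Every pair of replicates differed by more than sampling noise, with 3.8 as the lowest chi-square per degree of freedom. The labels number the light libraries and the dark libraries in separate runs, so that an effect of light and one of the run cannot be told apart in any comparison of light with darkness.

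Light was accompanied by changes across a large part of the transcriptome of the deletion strain, and the sizes were unequal in the 2 directions. Of 9040 gene IDs tested, 3884 passed (43% of those tested, edgeR quasi-likelihood test, Benjamini-Hochberg adjusted p under 0.05). Of these, 1832 IDs (20.3%) were higher in light and 2052 (22.7%) were lower. Among changes of at least 2-fold, decreases prevailed, with 518 IDs higher in light (5.73%) and 1255 lower (13.9%). In bulk RNA, fewer cells of a type and less RNA per cell cannot be told apart. CPM ranges of the light and dark libraries did not overlap for 5406 IDs, 59.8% of those tested.

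The excess of decreases grew with their size. At least 4-fold, 188 IDs were higher and 831 lower, and at least 16-fold, 34 were higher and 344 lower when IDs at 0 counts in a group were held at a floor of 3 counts over that group. The median log2 fold change was 1.57 among the IDs at least 2-fold higher in light and -2.68 among those at least 2-fold lower, also with such IDs at the floor. Over all tested IDs the median was -0.01. The direction of the smaller changes depended on scaling and tool. With library totals alone, in which the median of all IDs was 0.20 on the log2 scale, 66.7% of the passing IDs were higher in light, against 47.2% with TMM scaling. This share was 55% with upper-quartile scaling and 50.9% with voom in limma, but 43.8% with size factors of the DESeq2 type and 43.7% with DESeq2. Decreases of at least 2-fold outnumbered increases with library totals alone too, with 737 IDs higher and 1114 lower.

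**Figure D1:**
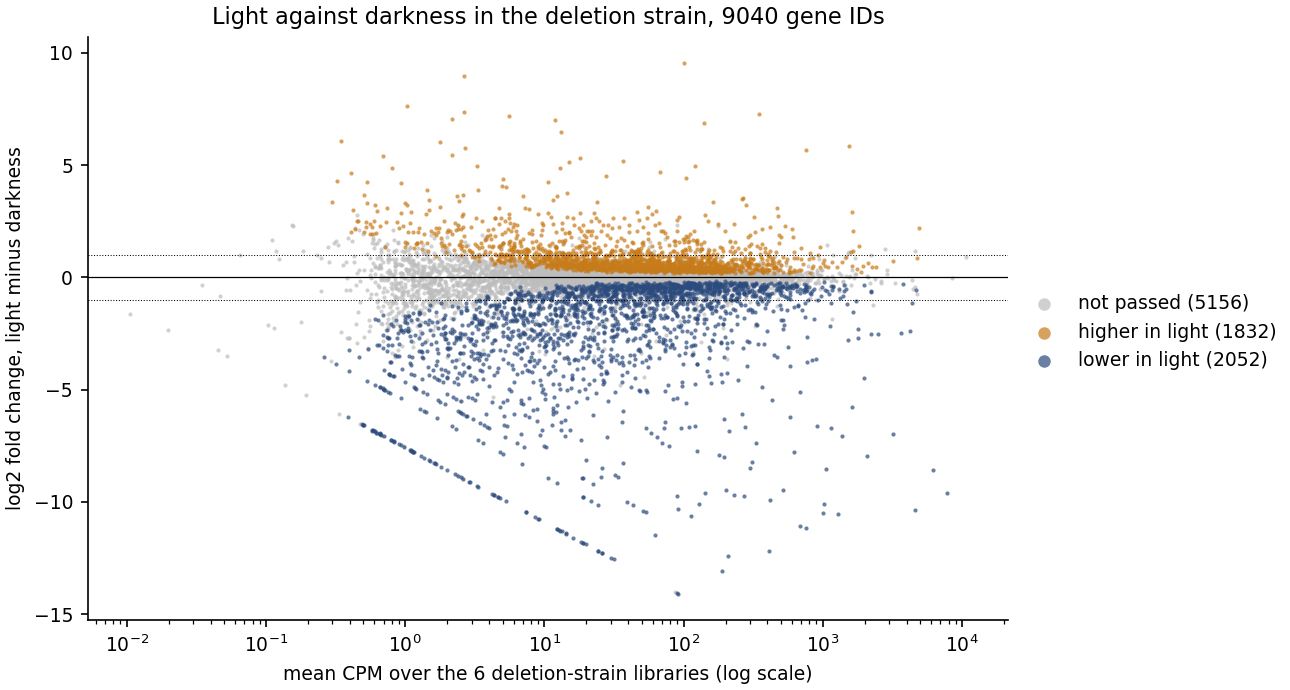
Each point is a gene ID, with its mean CPM over the 6 deletion-strain libraries on a log axis and its log2 fold change (light minus darkness) on the vertical axis; dotted lines mark a 2-fold change. The 2052 IDs lower in light reach much farther from 0 than the 1832 higher ones, and the slanting lines at the lower left hold IDs at or near 0 counts in light, whose fitted change depends on the prior count.

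The changes were found at every level of abundance. The IDs were divided into 3 classes of equal size by mean level over the 6 libraries. In the class of lowest level, up to 16.6 CPM, 277 were at least 2-fold higher in light and 671 at least 2-fold lower. In the middle class these numbers were 124 and 312. In the highest class, from 69.5 CPM, 117 were at least 2-fold higher and 272 lower. The share of IDs at least 2-fold lower was thus 22.3% in the lowest class and 9.03% in the highest.

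The IDs that changed made up a large part of the libraries. The 2052 IDs lower in light held 16.5% ± 0.15 of the counts in light and 37.6% ± 1 in darkness (SD, n = 3 each). The 1832 IDs higher in light held 28.1% ± 0.26 of the counts in light and 14.4% ± 1.2 in darkness. Since the IDs were grouped by this same contrast, these shares describe the size of the shift and carry no test. The 1255 IDs at least 2-fold lower held 3.83% ± 0.036 in light and 21.8% ± 0.61 in darkness.

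**Figure D2:**
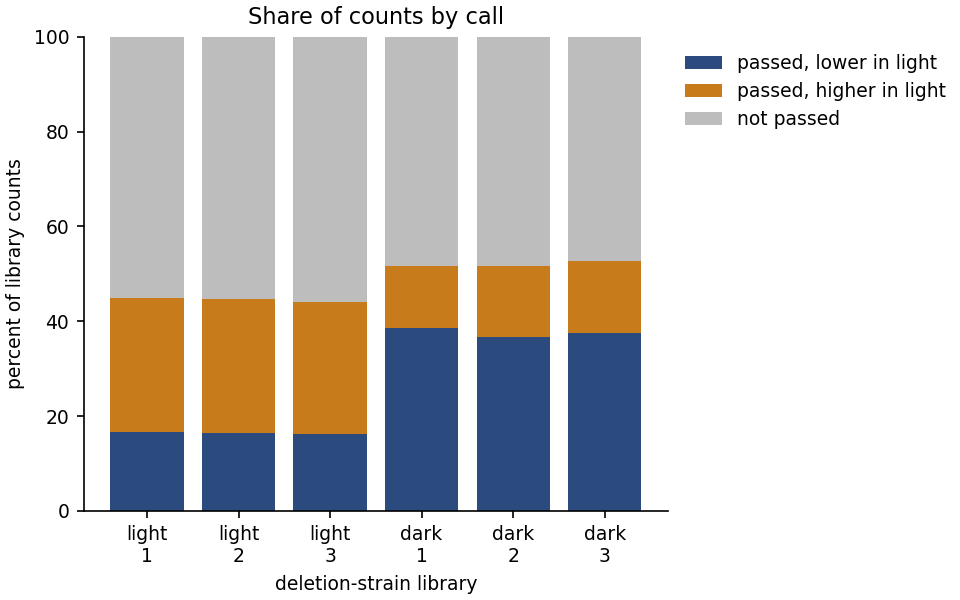
Each bar is a library of the deletion strain, light at the left, divided into the percent of its counts in IDs that were lower in light, higher in light or did not pass. IDs lower in light take 16.3% to 16.6% of the counts in the 3 light libraries and 36.6% to 38.6% in the 3 dark libraries.

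Among the most abundant transcripts the set changed in part. The 50 IDs of highest mean CPM in light and the 50 of highest mean CPM in darkness shared 26 IDs. Of the 50 leading IDs in light, 18 were higher in light, 6 were lower and 26 did not pass. Of the 50 leading IDs in darkness, 29 were lower in light, 4 were higher and 17 did not pass, and 24 were at least 2-fold lower. A list taken by its level in darkness favours IDs that are lower in light, so these numbers are a description. The 3 IDs with the highest level in darkness held 0.0042% to 0.0102% of the counts in the light libraries and 1.11% to 4.8% in the dark libraries.

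Among passing IDs whose CPM ranges in light and darkness did not overlap, TrC1011W and TrE0391W had the largest increases in mean CPM. Their pass and their lack of overlap were thus fixed by the choice. TrC1011W had 9018, 8073 and 6970.2 CPM in light and 737, 2354 and 2226 CPM in darkness. Every light library lay above every dark one, as the choice required, and this ID had rank 3 by level in light. The log2 fold change was 2.18 (SE 0.4, edgeR adjusted p = 0.0024). In the parent it had 7928, 5876 and 4787 CPM in light and 4332 and 3429 CPM in darkness, a change of 0.68 (SE 0.43) that did not pass (edgeR adjusted p = 0.244). The light effects of the strains did not differ beyond the threshold for this ID (edgeR adjusted p = 0.124).

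TrE0391W had 4246, 3623 and 1271 CPM in light and 8.71, 86.7 and 63.9 CPM in darkness. The groups lay far apart, with dark replicate 1 the lowest of all and light replicate 3 the lowest in light. The log2 fold change was 5.84 (SE 1.14, edgeR adjusted p = 0.00344). In the parent this ID reached 38677, 22756 and 17209.9 CPM in light, against 11.5 and 118.9 CPM in darkness, or 8.65 on the log2 scale (SE 1.56, edgeR adjusted p = 0.00264). The difference between the strains' effects was -2.81 (SE 1.44) and did not pass (edgeR adjusted p = 0.247).

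Among passing IDs without overlap, the largest decreases in mean CPM were those of TrG0022C and TrC1166C. These were the first and second most abundant IDs of the deletion strain in darkness. TrG0022C had 34.2, 12.9 and 11.7 CPM in light and 3758, 22034 and 20559 CPM in darkness. TrC1166C had 45.1, 28.8 and 23.1 CPM in light and 5704, 14305 and 17122 CPM in darkness. In both, dark replicate 1 was the lowest of the dark libraries and still lay far above every light library. The log2 fold changes were -9.62 for TrG0022C (SE 0.89, edgeR adjusted p = 6.81e-05) and -8.58 for TrC1166C (SE 0.52, edgeR adjusted p = 5.54e-06).

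Both IDs were also low in light and high in darkness in the parent. TrG0022C averaged 7.67 ± 1.95 CPM in light (SD, n = 3) and 8886 ± 2352 CPM in darkness (SD, n = 2). TrC1166C averaged 10.1 ± 1.33 CPM in light and 12634 ± 850.9 CPM in darkness. The differences between the strains' light effects were 0.56 (SE 0.95) and 1.7 (SE 0.57) on the log2 scale and did not pass (edgeR adjusted p = 0.753 and 0.0889).

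**Figure D3:**
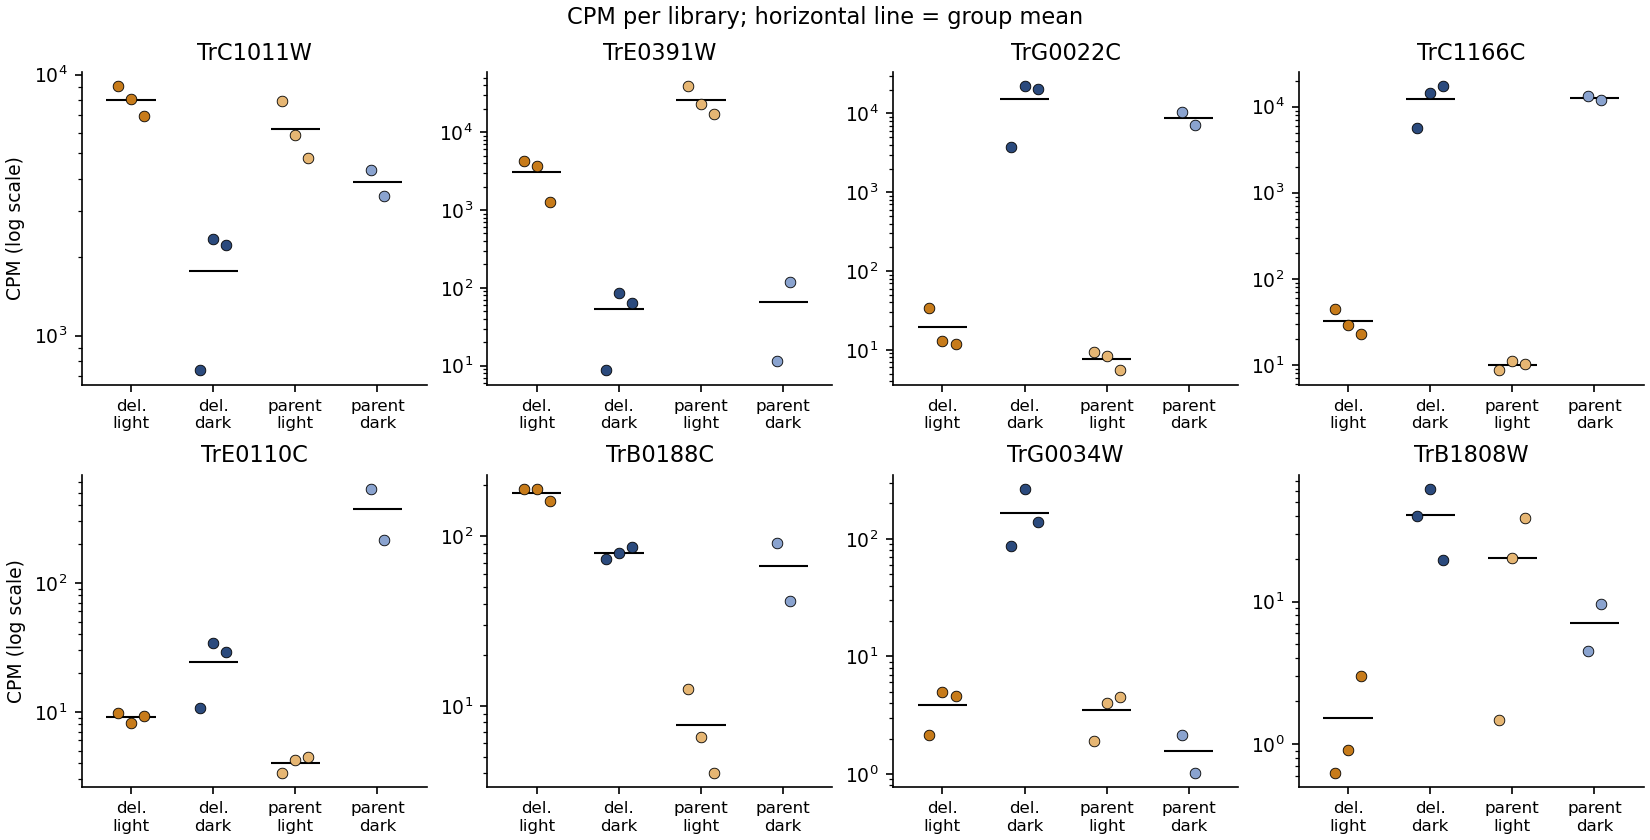
Each panel is a gene ID, with a point for the CPM of each library on a log axis and a line at the mean of its group, for the deletion strain in light and in darkness and the parent in light and in darkness. The upper row holds the IDs with the largest differences in mean CPM between light and darkness in the deletion strain, among passing IDs without overlap. An example is TrG0022C, with 11.7 to 34.2 CPM in light and 3758 to 22034 CPM in darkness. The lower row holds those with the largest differences in light effect from the parent. These were taken among IDs that passed both tests, with a mean of at least 5 CPM and at least 1 CPM in each group.

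IDs without any count were more frequent in light than in darkness. In the deletion strain 71 IDs had at least 10 counts in each dark library and 0 counts in all 3 light libraries. The reverse, 0 counts in all 3 dark libraries with at least 10 in each light library, was found for 1 ID. The light libraries were shallower, with 28197066 counts in all against 48558672 in darkness, so that 3 counts over a group stand for 0.0979 CPM in light and 0.0654 CPM in darkness. An ID at 0 counts in a group may still be expressed below these levels. At the lower depth in light, 0 counts are reached more easily, and the cut-off of 10 counts stands for a higher CPM. Both favour IDs without counts in light, and these numbers are not given at equal depth.

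Of the 71 IDs without counts in light, 68 passed the filter on low counts. Their median level was 4.74, 6.24 and 5.74 CPM in the dark libraries, with single IDs from 0.69 to 515 CPM. In the parent, whose libraries had no part in the choice of these IDs, 50 of the 71 also had 0 counts in the 3 light libraries and 60 had at most 3. Among all 8655 IDs with at least 10 counts in each dark library of the deletion strain, 127 (1.47%) had 0 counts in the parent in light. In the parent in darkness the 68 IDs had medians of 1.42 and 2.45 CPM.

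Position in the numbering of the IDs went along with the response. The IDs fall into 7 lettered series with serial numbers. The sources used here give no coordinates for them, so whether the numbers follow the order of genes on chromosomes was not checked. Within 25 IDs of either end of a series, 119 of 239 tested IDs (49.8%) were at least 2-fold lower in light, and 14 (5.86%) were at least 2-fold higher. The share lower was 31.7% from 26 to 50 IDs, 21.5% from 51 to 100, 19.7% from 101 to 200 and 10.3% beyond 200. The share higher lay between 5.33% and 7.97% in all 5 classes.

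The share near the ends varied among the 7 series and was above 10.3% in each. The share at least 2-fold lower within 25 IDs of an end was lowest in series F, with 9 of 29 tested IDs (31%), and highest in series C, with 20 of 32 (62.5%). IDs near the ends were also less abundant, with a median of 2.07 CPM in light and 7.55 CPM in darkness within 25 IDs, against 39.2 CPM in light and 40.6 CPM in darkness beyond 200. The part of this lower level in the share was not tested. Over the class of lowest abundance as a whole the share was 22.3%. In the parent the share at least 2-fold lower was 34.3% within 25 IDs of an end and 9.29% beyond 200. The parent's share at least 2-fold higher was 9.62% within 25 IDs, 9.86% from 26 to 50 and 5.99% beyond 200. Without dark replicate 1 of the deletion strain, the shares lower in that strain were 51.1% within 25 IDs and 9.58% beyond 200.

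**Figure D4:**
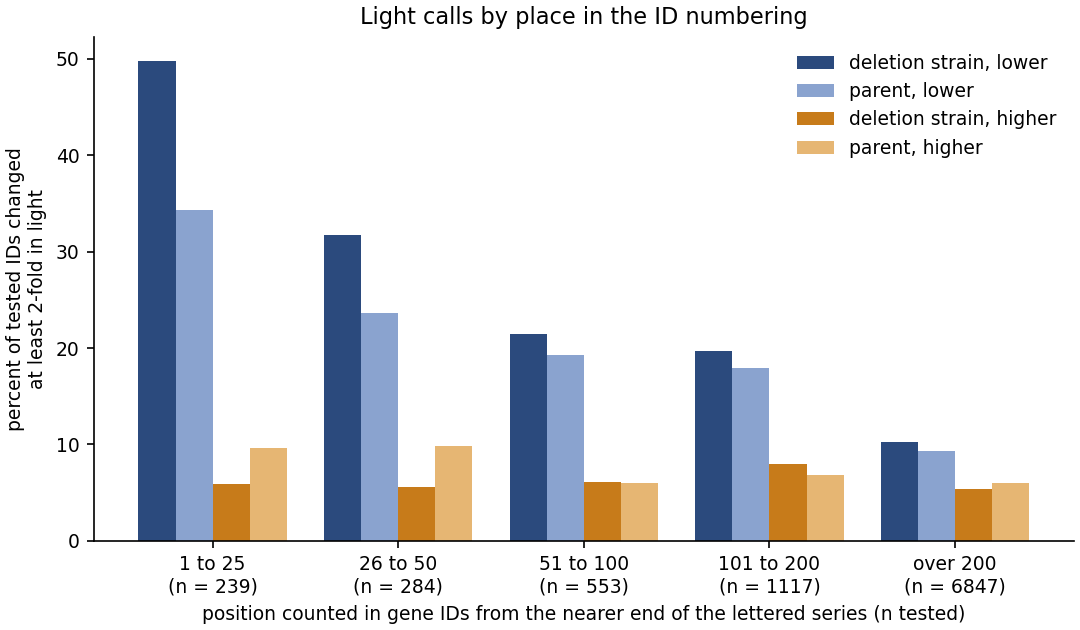
Bars give the percent of tested gene IDs that were at least 2-fold lower or higher in light (adjusted p under 0.05) by the number of IDs to the nearer end of their lettered series, in the deletion strain and in the parent. In the deletion strain the share lower is 49.8% within 25 IDs of an end and 10.3% beyond 200, and the share higher stays between 5.33% and 7.97%.

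IDs with neighbouring numbers often responded alike. Of 983 IDs at least 2-fold lower in light whose next number was tested, 376 (38.3%) were followed by another such ID, where 13.9% of all tested IDs were of this kind. Within 25 IDs of an end of a series 49.8% were of this kind. The part of the ends in the 38.3% was not tested. For IDs at least 2-fold higher the share was 15.8% (68 of 431), where 5.73% of all tested IDs were. Runs of 5 or more consecutive numbers at least 2-fold lower in light occurred 12 times and held 68 IDs, and a run of 5 or more at least 2-fold higher occurred once. Some of the runs lower in light lay near an end, such as numbers 1 to 5 of series E. Without dark replicate 1 the numbers of runs were 13 and 1.

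The 2 longest runs had 7 IDs each and differed in level. In numbers 659 to 665 of series E the median CPM over the IDs was 17.5, 17.1 and 15.7 in light and 1195, 148 and 208 in darkness. Here dark replicate 1 was the highest, unlike in the most abundant falling IDs. In the parent the medians of the same IDs were 5.3, 5.83 and 7.73 CPM in light and 632 and 705 CPM in darkness, and 6 of the 7 were lower in light.

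Numbers 1960 to 1966 of series A were less abundant, with medians of 1.08, 0.909 and 0.726 CPM in light and 5.96, 10.5 and 13.7 CPM in darkness. All 7 were also lower in light in the parent. Near the upper end of the same series, numbers 2143 to 2148 had medians of 0 CPM in each light library and 11.2, 46.7 and 58.7 CPM in the dark libraries. In the parent these 6 IDs had medians of 0 CPM in each light library and 9.16 and 5.09 CPM in darkness. All were singled out after the values had been seen, the runs of 7 IDs by their length. The run of 6 IDs was an example, since other runs were as long. Not every run passed in the parent too. In numbers 15 to 19 of series D, 0 of 5 IDs passed as lower there, and 0 passed the test of the difference between the strains.

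The light response of the deletion strain was set against that of the parent, in which 3498 of 9040 IDs (38.7%) passed. Of all 9040 IDs, 1657 passed as higher in light in the parent and 1841 as lower. These comparisons have no library in common. They share 1 estimate of the spread, and both set the light run of library numbers against the dark run. Of the 518 IDs at least 2-fold higher in light in the deletion strain, 309 also passed as higher in the parent, 30 passed as lower and 179 did not pass. Of the 1255 at least 2-fold lower, 765 passed as lower in the parent, 21 as higher and 469 did not pass. Seen from the parent, 336 of its 570 IDs at least 2-fold higher in light and 792 of its 1092 at least 2-fold lower passed in the same direction in the deletion strain.

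Among the IDs chosen for a change of at least 2-fold in the deletion strain, the parent's median log2 change was 1.09 for those higher in light and -1.79 for those lower, with IDs at 0 counts held at the floor. The choice by the deletion strain's own values favours a larger change there. The larger the decrease in the deletion strain, the more often it also passed in the parent. The share was 61% of the decreases of at least 2-fold, 71.8% of those fitted as at least 16-fold and 87.1% of the 93 fitted as at least 256-fold. Many decreases of the last size have 0 or few counts in light, and their fitted size depends on the prior count.

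The test of the difference between the light effects of the strains was passed by 975 IDs, 10.8% of those tested. It shares its libraries with the light test of the deletion strain. IDs chosen for a large effect in that strain are thereby favoured to pass, and to do so with the larger effect there. The following shares and splits are a description. Among the 518 IDs at least 2-fold higher in light in the deletion strain, 123 (23.7%) passed it, 101 of them with the larger increase in the deletion strain and 22 with the larger one in the parent. Among the 1255 at least 2-fold lower, 235 (18.7%) passed it, 182 with a more negative effect in the deletion strain and 53 with a more negative one in the parent. Of the IDs at least 2-fold changed in the deletion strain that did not pass in the parent, the difference was shown for 43 of 179 higher and 105 of 469 lower. For the others the strains were not shown to differ. Of single libraries, the omission of parent replicate 1 in darkness brought the total of 975 to 386, and that of parent replicate 2 in light to 595. Omission of deletion replicate 1, 2 or 3 in light brought it to 617, 552 or 549.

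**Figure D5:**
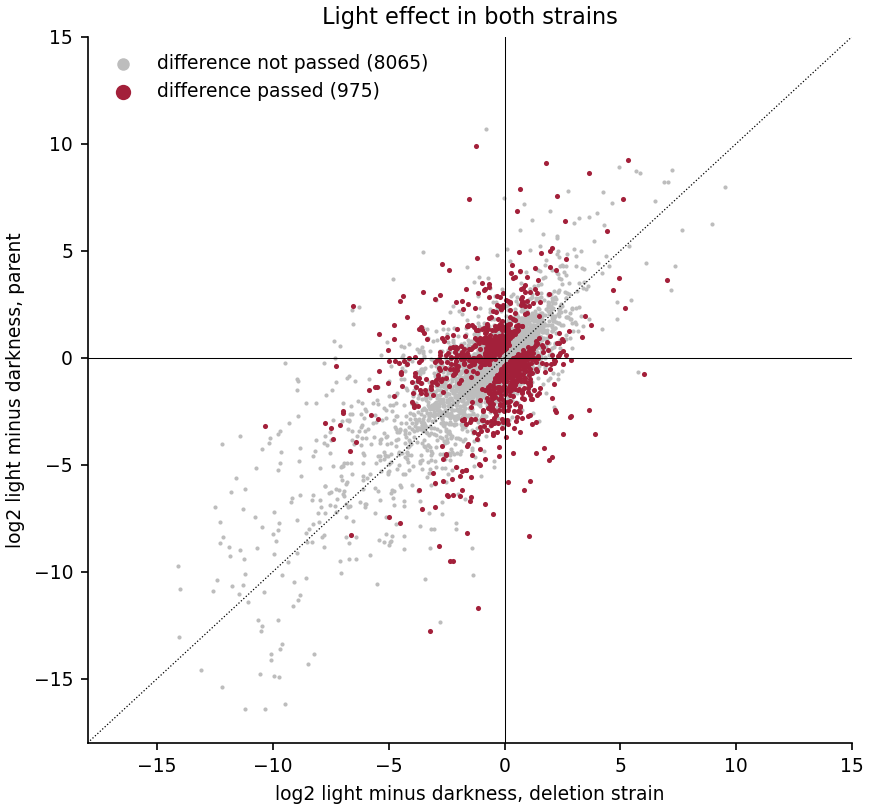
Each point is a gene ID, with its log2 fold change (light minus darkness) in the deletion strain on the horizontal axis and in the parent on the vertical axis; the dotted line marks equal effects. The 975 IDs that passed the test of the difference lie away from the line on both sides, and the other 8065 are in grey.

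A part of the parent's response did not pass in the deletion strain. Of the 570 IDs at least 2-fold higher in light in the parent, 214 did not pass in the deletion strain, and for 84 of them the effects differed by the test. Of the 1092 at least 2-fold lower in the parent, 263 did not pass in the deletion strain, and the effects differed for 114 of them. Over all tested IDs the test of the difference was passed by 10.8%. It shares the parent's libraries, so IDs chosen for a large effect there are favoured to pass it, and these counts are a description. Opposite changes passed for 126 IDs, all of which also passed the test of the difference. That test is built from the same 2 light effects, so effects of opposite sign that both pass favour a pass there. It is no separate evidence for these IDs. Of these, 72 were higher in light in the deletion strain and lower in the parent, and 54 were lower in the deletion strain and higher in the parent. The total of 126 was 70 without deletion replicate 2 in light, 76 without deletion replicate 3 in light and 61 without parent replicate 1 in darkness.

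Differences in effect were ranked among IDs that passed both the test of the difference and the light test of the deletion strain, with a mean of at least 5 CPM over the 11 libraries and at least 1 CPM in each group. Larger differences outside these limits are not ranked here. TrE0110C and TrB0188C had the most positive differences of this set. TrE0110C had 9.82, 8.18 and 9.23 CPM in light and 10.7, 34.1 and 28.8 CPM in darkness in the deletion strain, without overlap. The parent had 3.38, 4.25 and 4.48 CPM in light and 535.5 and 214.3 CPM in darkness. Thus the parent in darkness stood far above all other libraries. The log2 light effects were -1.43 (SE 0.45, edgeR adjusted p = 0.0294) in the deletion strain and -6.53 (SE 0.56, edgeR adjusted p = 4.88e-05) in the parent, and they differed by 5.1 (SE 0.69, edgeR adjusted p = 0.00309).

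TrB0188C changed in opposite directions in the strains. In the deletion strain it had 191, 189.7 and 160.8 CPM in light and 73.1, 80 and 86.8 CPM in darkness. In the parent it had 12.6, 6.56 and 4.03 CPM in light and 91.7 and 41.6 CPM in darkness. The dark libraries of the strains thus overlapped, and the light libraries did not. The light effect was 1.18 (SE 0.36, edgeR adjusted p = 0.0272) in the deletion strain and -3.1 (SE 0.43, edgeR adjusted p = 0.00067) in the parent, a difference of 4.28 (SE 0.56, edgeR adjusted p = 0.00273).

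The most negative differences of the same set were those of TrG0034W and TrB1808W. TrG0034W had 2.16, 4.95 and 4.56 CPM in light and 87.4, 267.3 and 139.6 CPM in darkness in the deletion strain. In the parent it was low throughout, with 1.92, 4.01 and 4.48 CPM in light and 2.14 and 1.03 CPM in darkness. Only the dark libraries of the deletion strain stood out. Its light effect was -5.41 (SE 0.55, edgeR adjusted p = 0.000106) in the deletion strain and 1.11 (SE 0.66, edgeR adjusted p = 0.213) in the parent, a difference of -6.52 (SE 0.86, edgeR adjusted p = 0.00273). With voom the difference missed the threshold (limma adjusted p = 0.052, the highest among its 22 alternatives).

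TrB1808W had 0.631, 0.909 and 3.01 CPM in light and 40.1, 61.9 and 19.6 CPM in darkness in the deletion strain. In the parent it had 1.47, 20.3 and 38.7 CPM in light and 4.47 and 9.6 CPM in darkness, so that the parent's ranges overlapped. The light effect in the deletion strain was -4.76 (SE 1.09, edgeR adjusted p = 0.00751), and the difference from the parent was -6.28 (SE 1.54, edgeR adjusted p = 0.0341). In 12 of 22 alternatives the difference did not pass. Omission of any of 9 libraries was enough, the exceptions being replicate 3 of the deletion strain in darkness and replicate 1 of the parent in light. The highest adjusted p was 0.162, in edgeR without parent replicate 1 in darkness and in limma.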

How the data were processed

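The deposited values were raw counts per gene ID, as whole numbers that summed to unequal totals. The submitters' processing notes name HISAT2 2.2.1. How the authors counted with regard to strand and multiple matches is not given in the sources used here, so IDs of near-identical, overlapping or antisense genes are uncertain. The alignment names in the labels tied each column to its sample. The table held 10879 IDs, of which 388 had 0 counts in all 6 deletion libraries. None of them (0 of 10879) matched the 9116 genes of the GCF_000167675.1 table, so no gene list was tested.

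Filtering with filterByExpr left 9040 IDs, with at least 99.96% of the counts of each deletion library. All 11 libraries were fitted in edgeR 4.0.16 (R 4.3.3) by quasi-likelihood with TMM scaling and a mean for each of the 4 groups. Adjusted p-values are Benjamini-Hochberg over 9040 IDs in each of 3 comparisons, with a threshold of 0.05. CPM uses TMM-scaled totals. Standard errors are the log2 value over the root of F. Floors of 3 counts cover counting error only. At least 2-fold means a log2 change of at least 1 together with an adjusted p under 0.05.

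Named IDs were the 2 rising and 2 falling with the largest difference in mean CPM among passing IDs without overlap. Added to these were the 2 most positive and 2 most negative differences in effect among IDs that passed both tests, with a mean of at least 5 CPM and at least 1 CPM in each group. These rules and all lists were chosen with earlier results of these data known. The fit was tested on simulated data. Alternatives were other scalings and filters, DESeq2 1.42.0, voom in limma 3.58.1, a test against a 2-fold change, the 6 deletion libraries alone, a replicate block, thinning to 8020351 counts, removal of the 20 most abundant IDs and omission of each library. The omission of a library from the parent in darkness leaves 1 there, which is assumed to vary like the other groups.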

Additional observations from a re-analysis of the deposited data

Results flagged for a closer look

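The light effect differed between the deletion strain and the parent for 975 gene IDs by the test of the difference in edgeR (adjusted p under 0.05). Among the named IDs the log2 difference (deletion strain minus parent) was 5.1 for TrE0110C (adjusted p = 0.00309), 4.28 for TrB0188C (adjusted p = 0.00273), -6.52 for TrG0034W (adjusted p = 0.00273) and -6.28 for TrB1808W (adjusted p = 0.0341), all in edgeR. A shift between the library runs that was common to both strains would cancel in this difference, and the part of a shift that was not common was not tested. Groups of 3 libraries are too small for a test of single outlying libraries.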

How the results depend on the processing

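For light in the deletion strain, the number of passing IDs (3884) and its splits stayed within 1.5 times under all scalings, filters and tools, when any library was left out (2869 to 4034 passing) and at equal depth (3727), with these exceptions. Library totals alone gave 3116 IDs higher in light. The test against a 2-fold change gave 949 passing IDs, 211 higher and 738 lower in light. For the difference between the strains' effects, it gave 177 in place of 975, DESeq2 gave 1532, and leaving out each library gave 386 to 1175. Opposite changes numbered 3 in the test against a 2-fold change and 61 to 135 when each library was left out. The number with the replicate block was 3473 for light in the deletion strain and 716 for the difference. The labels do not state whether replicate numbers pair light and dark libraries. The deviations of same-numbered light and dark libraries correlated at 0.04, -0.06 and 0, and not every library correlated best with its own number. These values gave no sign of pairing, but they cannot exclude it. The difference for TrB1808W missed the threshold with voom (limma adjusted p = 0.162), against a 2-fold change (edgeR adjusted p = 0.112) and with the replicate block (edgeR adjusted p = 0.0543). Causes were not tested. Without deletion replicate 1 in darkness 3654 IDs passed, of which 3268 also passed with all libraries, and the shares of IDs at least 2-fold changed that passed alike in the parent were 68.7% higher and 69.1% lower, against 59.7% and 61% with all libraries. These shares and those by place in the numbering were recomputed by alternatives chosen after seeing the data. The 6 deletion libraries alone give no test of the difference.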

Other observations

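The lettered ID series of the deletion strain responded to different extents. The share of tested IDs at least 2-fold lower in light was lowest in series A, with 209 of 1832 (11.4%), and highest in series F, with 162 of 891 (18.2%). The share at least 2-fold higher lay between 4.72% in series E and 6.77% in series B. IDs ending in W and in C gave like shares, with 13.5% and 14.2% at least 2-fold lower and 5.64% and 5.82% at least 2-fold higher. These values are descriptions, and no difference between the series was tested.

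Deletion replicate 1 in darkness was often the extreme dark library. Among the 1255 IDs at least 2-fold lower in light, it was the dark library nearest to light for 592, beside 351 and 312 for dark replicates 2 and 3. It was the farthest for 520, beside 272 and 463. Among the 518 at least 2-fold higher, it was nearest for 128, beside 211 and 179, and farthest for 310, beside 92 and 116. Such counts over all tested IDs are not given here. The median log2 difference between light and this library was -1.86 for the IDs at least 2-fold lower, beside -1.77 and -1.81 for dark replicates 2 and 3. For the IDs at least 2-fold higher it was 1.46 for this library, beside 1.23 for each of the others. These medians set the mean of the light libraries against a single dark library and are not fitted fold changes. Their sizes are therefore not to be set beside the fitted medians of -2.68 and 1.57.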
